A study of Saccharomyces cerevisiae with 6 samples.

Results

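The genes described here encode the cytosolic factors that start, carry forward and end protein synthesis in Saccharomyces cerevisiae. They were chosen by systematic ORF name as 40 genes for initiation, elongation and release factors, and 37 of them were listed with a probe set, out of 5657 genes measured in all. The 37 genes include CAF20 and EAP1, which encode repressors of initiation. The probe sets of 3 members, TIF2, TEF2 and EFT2, are of a type that can share signal with another gene. They were compared between 3 shake-flask cultures of the wild-type laboratory strain CEN.PK 113-7D grown with BSA and 3 control cultures of the same strain grown without it. All 6 were aerobic cultures at 30 degrees, shaken at 175 rpm, and each gave 1 Affymetrix array of total RNA. BSA usually stands for bovine serum albumin, but only the abbreviation is given. Neither its amount nor the medium is stated in the labels. The protocol gives sampling at 48 h, whereas the design text speaks of an early phase on glucose, so the growth phase is not settled by the labels.

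Translation starts when the small ribosomal subunit, carrying eIF1, eIF1A, eIF3, eIF5 and the initiator tRNA bound to eIF2, is brought to the capped mRNA by the eIF4 factors and poly(A)-binding protein and scans to the start codon. eIF2 has to be recharged with GTP by eIF2B after each round, which is the step that yeast slows under amino acid starvation through the kinase Gcn2. During elongation eEF1A delivers aminoacyl-tRNA, eEF2 moves the ribosome along, and fungi also need eEF3, and at the stop codon eRF1 and eRF3 release the finished protein.

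Values are the authors' log2 expression values per probe set, and a difference of 1 is a 2-fold change. Genes were called higher or lower with BSA at an adjusted p under 0.05 in limma, fitted and adjusted over all 5657 genes. Equal amounts of RNA were labelled, so a value is a share of the RNA, and less mRNA of a gene per cell cannot be told apart from more of other RNA. Array medians were 7.56 to 7.62, and precision is limited by the number of arrays. Arrays of a group differed over all genes by an SD of 0.0567 to 0.198, and arrays of different groups by 0.625 to 0.732. The control cultures 2 and 3 were the closest pair (SD 0.0567). Counted as 1 sample, they left 25 of the 37 genes called lower and 5 called higher, TIF4632 being the one lost. Of all 5657 genes, 2474 were then called lower and 1479 higher.

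Most translation factor genes had lower transcript levels with BSA, and a few moved the other way, of which only DED1 moved strongly. Of the 37 genes, 25 (67.6%) were called lower, against 47.1% of all genes, and 6 (16.2%) were called higher, against 28.3% of all genes. The other 6 were not called. Called in either direction were thus 31, where 75.4% of all genes were called. The genes called higher were those of the helicase Ded1, the elongation factor 3 copy Hef3, eIF1, eIF5, eIF6 and the second eIF4G. The median log2 fold change of the 37 genes was -0.41, which is -0.28 relative to the median of all genes (-0.13). Only YEF3 was at least 2-fold lower and only DED1 at least 2-fold higher, and the 25 genes called lower ranged from -0.26 to -1.11. The BSA values all lay on one side of the controls in 35 of the 37 genes, 28 lower and 7 higher with BSA, where 79.5% of all genes were so separated, 49.9% lower and 29.6% higher.

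**Figure D1:**
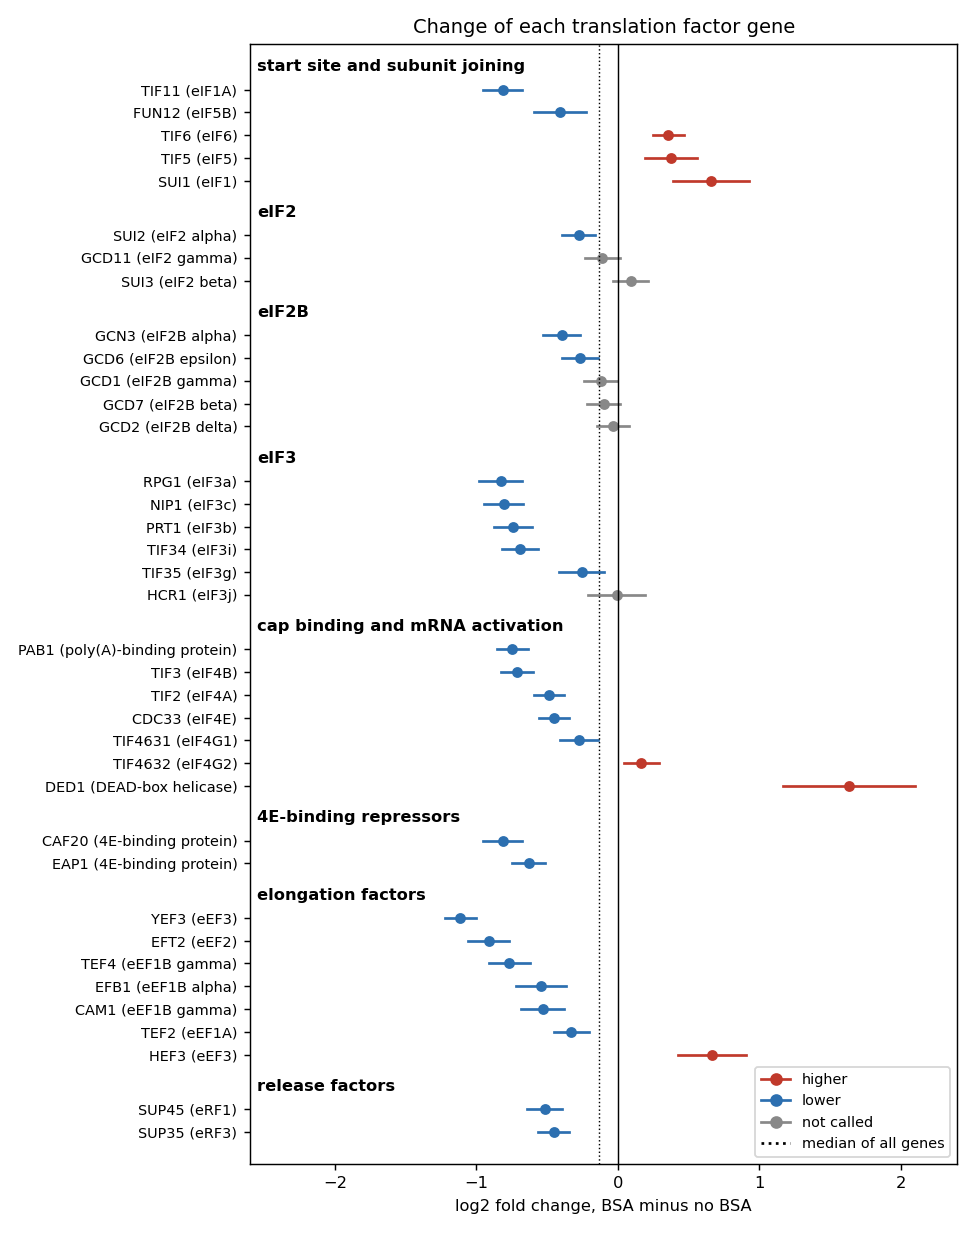
Log2 fold change (BSA minus no BSA, horizontal axis) of the 37 measured translation factor genes, grouped by functional class, with 95% intervals of the limma fit (n = 3 arrays per group). Blue and red points were called lower and higher, grey ones were not called, and the dotted line marks the median of all genes (-0.13). Most points lie left of that line, from YEF3 at -1.11, while DED1 at 1.64 lies far to the right.

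The spread between cultures was small beside most of these changes. The median SD of a translation factor gene was 0.0538 over the BSA arrays and 0.0524 over the arrays without BSA, against 0.0776 and 0.0608 for all genes. The largest differences within a group came from BSA culture 1. It lay 0.75 above culture 3 in DED1, whereas BSA cultures 2 and 3 differed by no more than 0.13 in any of the 37 genes. BSA culture 1 was the lowest of its group in 19 of the 37 genes (51.4%, against 47.7% of all genes). Among the controls, culture 1 was the lowest in 25 of the 37 genes (67.6%, against 46.5% of all genes). Left out in turn, BSA culture 1 and control culture 1 gave medians of -0.35 and -0.46.

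**Figure D2:**
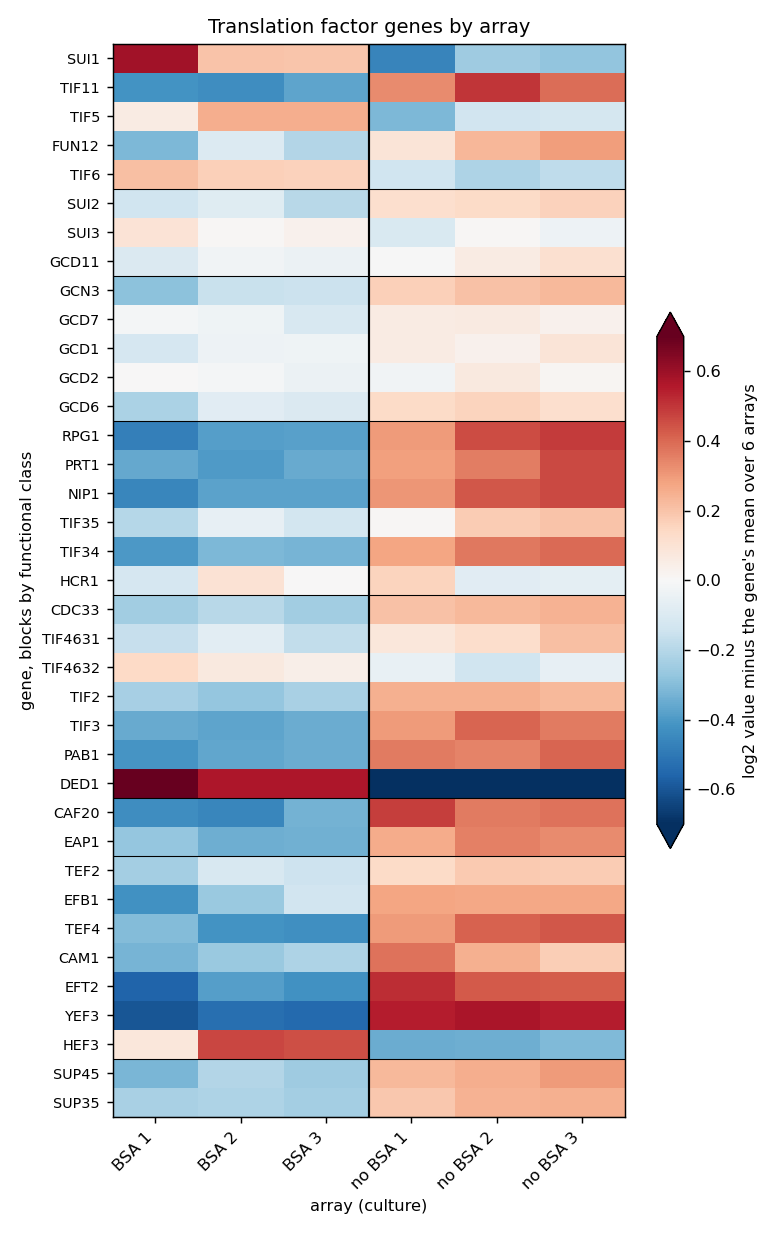
Deviation of each log2 value from the gene's mean over the 6 arrays, with arrays as columns (BSA 1 to 3, then no BSA 1 to 3) and the 37 genes as rows in blocks by functional class. Colours are clipped at the ends of the scale, which affects DED1. Most rows are blue in the BSA columns and red in the others, and DED1, SUI1, TIF5, TIF6, TIF4632 and HEF3 show the opposite.

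The factors that set the start codon and join the ribosomal subunits went both ways. SUI1 (YNL244C) encodes eIF1, which guards against starting at the wrong codon. It had log2 values of 10.81, 10.42 and 10.42 in the BSA cultures, against 9.76, 9.97 and 9.94 without BSA. All BSA values lay above all control values, with culture 1 the highest, and the gene was 1.58-fold higher (log2 fold change 0.66 ± 0.12 SE, limma adjusted p = 0.00121). TIF11 (YMR260C), the gene of eIF1A, which works beside eIF1 in scanning, moved the other way. Its values were 8.50, 8.49 and 8.55 with BSA and 9.25, 9.42 and 9.31 without. The groups were far apart, and TIF11 was 1.76-fold lower (-0.81 ± 0.06 SE, limma adjusted p = 1.64e-05).

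TIF5 (YPR041W) encodes eIF5, which makes eIF2 hydrolyse its GTP at the start codon. It read 8.24, 8.44 and 8.43 with BSA, against 7.87, 8.05 and 8.06 without BSA, a rise of 0.38 ± 0.08 (SE, limma adjusted p = 0.00291). TIF6 (YPR016C), whose product eIF6 keeps free large subunits from joining too early and acts in their assembly, had 9.22, 9.18 and 9.18 with BSA and 8.87, 8.80 and 8.84 without. Both genes were higher in every BSA culture than in any control, although the changes were small (TIF6 0.36 ± 0.05 SE, limma adjusted p = 0.000288). FUN12 (YAL035W), the gene of the subunit-joining GTPase eIF5B, changed by -0.41 ± 0.08 (SE), with values of 8.71 to 8.93 in BSA cultures and 9.11 to 9.31 in controls.

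Little change was measured in the genes of eIF2, the GTPase that carries the initiator tRNA. Of the 3 genes, 1 (33.3%) was called, and it was lower, where 47.1% of all genes were called lower. This was SUI2 (YJR007W), which encodes the alpha subunit, on which Gcn2 acts. Its values of 8.28, 8.33 and 8.22 with BSA lay below the 8.53, 8.55 and 8.58 without BSA (-0.28 ± 0.05 SE, limma adjusted p = 0.00141). Relative to the median of all genes (-0.13), SUI2 lay at -0.14. SUI3 (YPL237W), the beta subunit gene, had 9.16, 9.07 and 9.09 with BSA, against 8.95, 9.07 and 9.02 without BSA. Its groups barely separated and the 95% interval of the change ran from -0.03 to 0.22 (limma adjusted p = 0.158). The gamma subunit gene GCD11 (YER025W) read 8.54, 8.62 and 8.60 with BSA and 8.64, 8.70 and 8.75 without, with an interval of -0.23 to 0.01 (limma adjusted p = 0.0882). Calls on such small values changed with the settings. SUI3 was called higher after centring every array on its median deviation, taken over genes from each gene's mean (0.22) or after cyclic loess (0.16), and GCD11 was called lower after quantile normalization (-0.22), with array weights (-0.11) and without control culture 1 (-0.14). Over the alternatives the adjusted p ran from 0.00998 to 0.364 for SUI3 and from 0.00743 to 0.708 for GCD11.

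The genes of eIF2B, the exchange factor of eIF2, likewise moved little. Its alpha subunit GCN3 (YKR026C), which with the beta and delta subunits senses phosphorylated eIF2, changed most. It had 6.83, 6.96 and 6.97 with BSA and 7.28, 7.32 and 7.34 without (-0.40 ± 0.06 SE, limma adjusted p = 0.000398). GCD6 (YDR211W), the catalytic epsilon subunit gene, had 7.77, 7.91 and 7.89 with BSA, against 8.12, 8.14 and 8.10 without BSA (-0.27 ± 0.05 SE, limma adjusted p = 0.00262). These 2 of 5 genes (40%) were the ones called, both lower, where 47.1% of all genes were called lower. Relative to the median of all genes (-0.13), GCN3 lay at -0.26 and GCD6 at -0.14.

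Of the other eIF2B genes, GCD1 (YOR260W, gamma) read 7.07, 7.15 and 7.16 with BSA and 7.25, 7.22 and 7.28 without, with an interval of -0.24 to -0.0041 and an adjusted p of 0.0579 in limma. GCD7 (YLR291C, beta) read 7.75, 7.73 and 7.65 with BSA and 7.82, 7.82 and 7.79 without, with an interval of -0.22 to 0.01. In both genes the groups were next to each other without overlap. GCD2 (YGR083C, delta) had 7.21, 7.20 and 7.17 with BSA, against 7.19, 7.28 and 7.23 without BSA, and its groups overlapped (interval -0.15 to 0.08). Relative to the median of all genes (-0.13), GCD1 lay at 0.012, GCD7 at 0.032 and GCD2 at 0.096, so the sign of these small changes depends on whether that shift is removed. After cyclic loess GCD2 was called higher (0.14, limma adjusted p = 0.0326, between 0.0326 and 0.935 across settings). GCD7 was called lower with array weights (-0.13) and GCD1 without the variance prior shared by all genes (-0.12).

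Of 6 genes of eIF3, the large complex that holds the initiation machinery on the small subunit, 5 (83.3%) were called lower. This compares with 47.1% of all genes, and the falls were unequal. RPG1 (YBR079C), the gene of the scaffold subunit eIF3a, had 7.72, 7.81 and 7.82 with BSA and 8.50, 8.66 and 8.69 without. This was 1.78-fold lower, or -0.83 ± 0.07 (SE, limma adjusted p = 2.37e-05), and no BSA culture came near a control. NIP1 (YMR309C, eIF3c) changed by -0.81 ± 0.06 (SE), PRT1 (YOR361C, eIF3b) by -0.74 ± 0.06 and TIF34 (YMR146C, eIF3i) by -0.69 ± 0.05, each with groups apart. TIF35 (YDR429C), the gene of eIF3g, which binds eIF3i in the same complex, changed less. Its values were 8.46, 8.60 and 8.52 with BSA, against 8.67, 8.83 and 8.85 without BSA (-0.26 ± 0.07 SE, limma adjusted p = 0.00965). That call was lost with arrays centred on the median deviation (-0.12, limma adjusted p = 0.111, between 0.000119 and 0.111 across settings). HCR1 (YLR192C) encodes eIF3j, a loosely bound subunit that also acts in the maturation of ribosomal RNA. It had 8.35, 8.57 and 8.47 with BSA and 8.62, 8.39 and 8.40 without, with overlapping groups and an interval of -0.21 to 0.19.

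Of the 7 measured genes of cap binding and mRNA activation, 5 (71.4%) were called lower, against 47.1% of all genes. DED1 and TIF4632 were called higher (28.6%, against 28.3% of all genes). PAB1 (YER165W), the gene of poly(A)-binding protein, had 9.28, 9.33 and 9.35 with BSA, against 10.05, 10.04 and 10.10 without BSA. It was 1.68-fold lower (-0.75 ± 0.05 SE, limma adjusted p = 1.13e-05). TIF3 (YPR163C, eIF4B), a helper of the eIF4A helicase, changed by -0.71 ± 0.05 (SE), and CDC33 (YOL139C, the cap-binding eIF4E) by -0.45 ± 0.05. The eIF4A helicase is encoded by TIF1 and TIF2, which make the same protein. The table lists a probe set for TIF2 (YJL138C) and none for TIF1 (YKR059W), and its type marks signal that can come from several genes. It had 9.96, 9.91 and 9.96 with BSA and 10.44, 10.43 and 10.42 without (-0.48 ± 0.04 SE, limma adjusted p = 4.75e-05), a tight fall that cannot be given to either copy.

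DED1 (YOR204W) rose furthest of all 37 genes. Its product is a DEAD-box RNA helicase that helps the small subunit to load and scan on structured leaders. The values were 9.82, 9.07 and 9.06 with BSA, against 7.51, 7.73 and 7.80 without BSA. Every BSA culture was above every control, with culture 1 clearly the highest, and DED1 was 3.11-fold higher (1.64 ± 0.20 SE, limma adjusted p = 0.000186). Without BSA culture 1 the log2 fold change was 1.38 (limma adjusted p = 4.85e-05), and across all settings the adjusted p lay between 6.33e-07 and 0.00762.

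The scaffold eIF4G, which bridges the cap-binding protein, the helicase and Pab1, has a pair of gene copies that are not identical. TIF4631 (YGR162W) had 6.89, 6.97 and 6.87 with BSA and 7.13, 7.17 and 7.26 without (-0.27 ± 0.06 SE, limma adjusted p = 0.00279). TIF4632 (YGL049C) had 7.95, 7.87 and 7.85 with BSA and 7.76, 7.67 and 7.75 without (0.17 ± 0.05 SE, limma adjusted p = 0.0215). Both changes were small and both calls depended on the processing. The TIF4631 call was lost after cyclic loess (-0.08). The TIF4632 call was lost without control culture 2 (0.14) or 3 (0.18), with these cultures counted as 1 sample (0.16) and at an adjusted p under 0.01. The adjusted p ran from 0.00018 to 0.193 for TIF4631 and from 0.00228 to 0.0981 for TIF4632 over their alternatives.

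Both genes of proteins that bind eIF4E in competition with eIF4G, and so repress cap-dependent initiation, were lower as well. Of all genes, 47.1% were called lower. CAF20 (YOR276W) had 7.88, 7.86 and 7.99 with BSA, against 8.80, 8.68 and 8.69 without BSA. EAP1 (YKL204W) had 6.98, 6.91 and 6.91 with BSA, against 7.51, 7.60 and 7.58 without BSA. The groups stood apart in both, as they did in 79.5% of all genes. The changes were -0.82 ± 0.06 (SE, limma adjusted p = 1.72e-05) for CAF20 and -0.63 ± 0.05 (SE, limma adjusted p = 2.55e-05) for EAP1.

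Elongation factor genes held the largest fall among the 37 genes. YEF3 (YLR249W) encodes the main form of eEF3, an ATPase that frees the exit site of the ribosome. It had 9.46, 9.53 and 9.52 with BSA and 10.61, 10.63 and 10.61 without. The cultures of each group were nearly equal, and YEF3 was 2.16-fold lower (-1.11 ± 0.05 SE, limma adjusted p = 2.14e-06). HEF3 (YNL014W), the second eEF3 gene, moved the other way. Its values were 8.92, 9.31 and 9.29 with BSA and 8.49, 8.50 and 8.53 without. BSA culture 1 was the lowest of its group, yet above all controls, and HEF3 was 1.59-fold higher (0.66 ± 0.10 SE, limma adjusted p = 0.000633).

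EFT1 and EFT2 encode the same eEF2 protein, and TEF1 and TEF2 the same eEF1A protein. Probe sets of the shared-signal type were listed for EFT2 (YDR385W) and TEF2 (YBR118W) and none for EFT1 (YOR133W) and TEF1 (YPR080W), so the copies could not be read apart. EFT2 had 9.80, 9.98 and 9.94 with BSA and 10.88, 10.79 and 10.78 without, 1.88-fold lower (-0.91 ± 0.06 SE, limma adjusted p = 1.36e-05). TEF2 read 11.99, 12.11 and 12.08 with BSA, against 12.36, 12.40 and 12.40 without BSA, a change of -0.33 ± 0.05 (SE, limma adjusted p = 0.000732). The TEF2 groups were apart as deposited, but the call was lost after quantile normalization (-0.23, limma adjusted p = 0.0792, between 2.21e-05 and 0.0792 across settings).

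The exchange factor that reloads eEF1A was lower in its 3 measured genes, where 47.1% of all genes were called lower. EFB1 (YAL003W), the catalytic subunit, had 10.33, 10.50 and 10.62 with BSA and 11.03, 11.03 and 11.02 without (-0.55 ± 0.08 SE). Its gamma subunit has a pair of gene copies. TEF4 (YKL081W) had 7.72, 7.60 and 7.59 with BSA, against 8.32, 8.43 and 8.46 without BSA, and CAM1 (YPL048W) had 9.20, 9.26 and 9.31 with BSA, against 9.90, 9.77 and 9.70 without BSA. Both were lower without overlap, which held for 49.9% of all genes. TEF4 changed by -0.77 ± 0.06 (SE, limma adjusted p = 2.49e-05) and CAM1 by -0.53 ± 0.07 (SE, limma adjusted p = 2.0e-04).

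Both release factor genes were called lower, where 47.1% of all genes were called lower. SUP45 (YBR143C), the gene of eRF1, which recognises the stop codons, had 7.97, 8.09 and 8.05 with BSA and 8.52, 8.55 and 8.59 without. SUP35 (YDR172W), the gene of the GTPase eRF3 that is also known as a yeast prion, had 7.76, 7.77 and 7.75 with BSA and 8.18, 8.23 and 8.24 without. Neither gene's groups overlapped, as in 79.5% of all genes. The changes were -0.52 ± 0.05 (SE, limma adjusted p = 7.06e-05) for SUP45 and -0.45 ± 0.05 (SE, limma adjusted p = 7.19e-05) for SUP35.

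Gene copies were also compared within each array, which cancels any shift common to both. The difference of HEF3 minus YEF3 averaged -0.33 with BSA and -2.11 without BSA, so that the fold changes differed by 1.78 ± 0.11 (SE). For TIF4632 minus TIF4631 the fold changes differed by 0.44 ± 0.07 (SE), and the per-array differences did not overlap between groups in either pair. For CAM1 minus TEF4 the value was 0.24 ± 0.12 (SE), with overlap. DBP1 (YPL119C), a related helicase that can stand in for Ded1 when overproduced, rose with DED1. DBP1 had 8.20, 7.70 and 7.59 with BSA and 6.44, 6.51 and 6.64 without, 2.47-fold higher (1.30 ± 0.15 SE, limma adjusted p = 0.000145), and again BSA culture 1 was the highest. Its control values were dim, below the first quartiles of those arrays (6.89 to 6.92). DBP1 minus DED1 differed by -0.33 ± 0.09 (SE) between groups. In exact two-sided permutation tests over the 6 arrays, p was 0.1 for the pairs without overlap, the smallest p that 3 arrays against 3 can give, and 0.2 for CAM1 and TEF4. Adjusted over the 4 pairs, p was 0.133 and 0.2, so none of these differences could pass at this number of arrays. The copies of these pairs are related in sequence, and whether a probe set of one also reads the other was not tested.

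**Figure D3:**
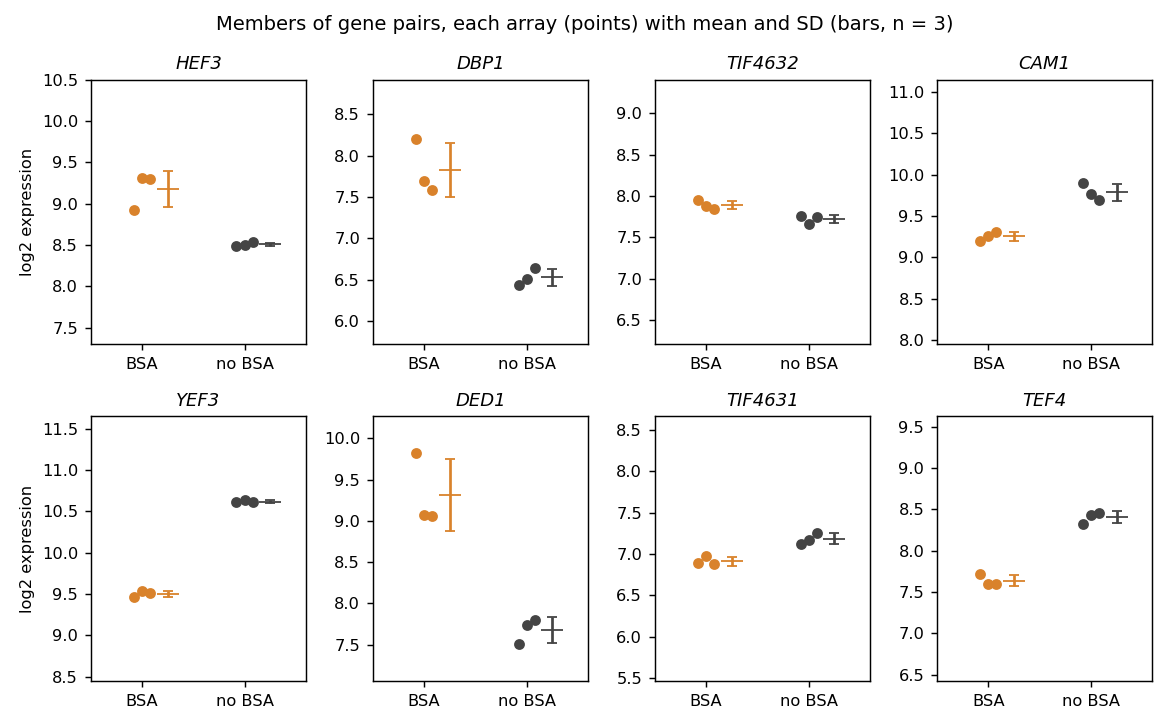
Log2 expression in each array (points) with mean and SD (bars, n = 3) for the gene pairs HEF3 and YEF3, DBP1 and DED1, TIF4632 and TIF4631, and CAM1 and TEF4, BSA left and no BSA right in each panel. All vertical axes span the same number of log2 units, but levels of different genes are not comparable. HEF3 is higher and YEF3 lower with BSA, while DBP1 and DED1 are both higher, with BSA culture 1 on top.

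Genes that act beside these factors were described by 4 further lists, holding 52 measured genes. Among other cytosolic factors, 14 of 17 (82.4%) were called lower and 3 (17.6%) higher, against 47.1% and 28.3% of all genes, with a median of -0.44. The highest were DBP1 and DOM34 (0.90 ± 0.07 SE), which rescues stalled ribosomes. The lowest were STM1 (-0.84 ± 0.06 SE), which binds idle ribosomes, and GCN20 (-0.79 ± 0.06 SE), which helps to activate Gcn2. HYP2, the main eIF5A gene, was chosen for its role and not by size. It changed by -0.58 ± 0.07 (SE), with means of 10.89 ± 0.13 with BSA and 11.47 ± 0.02 without (SD, n = 3). ANB1, its copy known from cells without oxygen, was dim, below the first quartile of every array (5.42 to 5.52 with BSA and 5.65 to 5.77 without). It was called lower (-0.22 ± 0.06 SE, limma adjusted p = 0.00681). The call was lost with arrays centred on the median deviation (-0.092) and after cyclic loess (-0.14).

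The list of proteins that meet the new chain at the ribosome holds chaperone genes and MAP1, which encodes an aminopeptidase. Of its 8 genes, 6 (75%) were called lower, all of them chaperone genes, against 47.1% of all genes, and 1, MAP1, was called higher, with a median of -0.88. EGD1 (-1.10 ± 0.07 SE) and EGD2 (-1.09 ± 0.07 SE), which encode subunits of the nascent polypeptide-associated complex, were lowest. BTT1, also on the list, was not called (-0.17 ± 0.07 SE, limma adjusted p = 0.0641), and its groups overlapped. MAP1, which removes the first methionine, was 2.32-fold higher (1.22 ± 0.11 SE). Of 18 enzymes that modify elongation and release factors or eIF5A, 9 (50.0%) were called lower and 4 (22.2%) higher, shares near those of all genes (47.1% and 28.3%), with a median of -0.22. KTI11, needed for the diphthamide on eEF2 and for the wobble modification of tRNA by Elongator, was 5.84-fold higher. It had 10.28, 10.11 and 10.08 with BSA, against 7.39, 7.73 and 7.72 without BSA (2.55 ± 0.10 SE, limma adjusted p = 2.03e-06). The diphthamide genes JJJ3 (-0.65 ± 0.08 SE) and DPH5 (-0.60 ± 0.05 SE) were lowest on that list, and EFM4, a methyltransferase of eEF1A, was higher (0.61 ± 0.07 SE).

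Of 9 mitochondrial translation factor genes, 4 (44.4%) were called higher, against 28.3% of all genes, and 2 (22.2%) lower, against 47.1% of all genes, with a median of 0.04. MEF2 (1.45 ± 0.07 SE), a homologue of bacterial elongation factor G, and TUF1 (1.11 ± 0.09 SE), the mitochondrial counterpart of eEF1A, rose furthest. The 3 genes not called included MEF1 (0.04 ± 0.07 SE, limma adjusted p = 0.647), whose groups overlapped. TUF1 had 10.15, 9.91 and 9.79 with BSA, against 8.80, 8.85 and 8.85 without BSA, with no overlap. The release factor gene MRF1 (-0.25 ± 0.05 SE) and the recycling factor gene RRF1 (-0.26 ± 0.05 SE) were called lower, and both calls were lost after cyclic loess (-0.073 and -0.063). The counts of these lists were not tested against other genes.

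**Figure D4:**
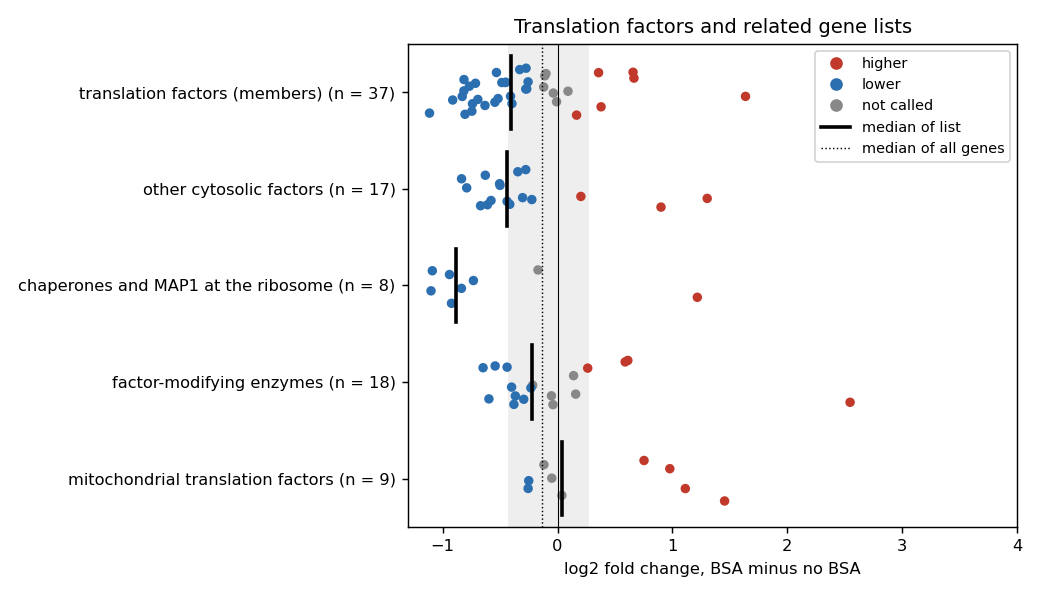
Log2 fold change (BSA minus no BSA, horizontal axis) of each gene in the 37 translation factor genes and in the 4 related lists, coloured by call, with the median of each list as a black bar. The grey band spans the middle quartiles of all genes (-0.42 to 0.27) and the dotted line their median (-0.13). The chaperones and MAP1 at the ribosome have the lowest median (-0.88) and the mitochondrial translation factors the highest (0.04), with KTI11 as the most distant point at 2.55.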

How the data were processed

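The authors deposited log2 expression values per probe set. The submitters' processing notes name PLIER and R 2.10.1, while background correction and normalization between arrays are not stated, and base 2 was read from the range of the values. The authors' annotation pairs probe sets with ORF names, and gene symbols came from the RefSeq gene table of assembly R64. Of 5705 probe sets, the one with the highest mean was kept per gene (5657 genes). BSA was compared with no BSA (3 arrays each) with limma 3.58.1 in R 4.3.3, adjusted over all genes by Benjamini-Hochberg, after a check on simulated data. That check recovered 50.1% of log2 changes of 0.3 and 97.1% of those of 1, with 5.17% of calls false. It changed 50 genes per size and held no shift common to all genes, unlike these data, so it does not gauge the calls made here. Exact permutation tests used scipy 1.17.1, and intervals are at the 95% level.

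The members and the related lists were chosen with earlier results of these data known. By rule all measured members are named, with values in every array for the extremes of each class, members called against the majority, uncalled members and gene pairs. From each related list up to 2 called genes at either end were taken. Same-numbered cultures were not treated as pairs. The correlations of their deviations were 0.10, 0.02 and 0.04, against -0.12 to 0.12 for differently numbered cultures. With so few arrays, these values cannot exclude a shared batch. The alternatives are named with their effects in the closing section.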

Additional observations from a re-analysis of the deposited data

How the results depend on the processing

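In all, 21 alternatives were run, and 27 of the 31 called translation factor genes kept their direction and call under every one that kept the gene. The exceptions were TIF35, TIF4631, TIF4632 and TEF2, whose values are given above, and the cause of each loss was not tested. With the replicate number as a block, 25 of the 37 genes were called lower and 6 higher, and of all genes 2669 lower and 1597 higher. The block changed no call among the 37 genes, while without it the counts of all genes were 2665 lower and 1603 higher. Left out in turn, single arrays gave 25 to 26 genes called lower and 5 to 6 called higher, and for all genes 2459 to 2680 lower and 1453 to 1597 higher. For the related lists the counts were 31 to 32 and 11 to 13, and the members' median was -0.46 to -0.35. Differences between pairs ranged from 0.40 to 0.49 for TIF4632 and TIF4631, 0.16 to 0.33 for CAM1 and TEF4, 1.72 to 1.89 for HEF3 and YEF3, and -0.39 to -0.27 for DBP1 and DED1.

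Scaling moved the members' median to -0.47 after quantile normalization, -0.28 with arrays centred on their median deviation and -0.34 after cyclic loess. Relative to the median of all genes, these were -0.38, -0.28 and -0.32, against -0.28 as deposited. Centring takes the same amount off all genes of an array, so it could not change that relative value. Centring on the median deviation brought the median of all genes to -0.00067, and the share of called genes that were higher was 50.2% there and 48.9% after cyclic loess, against 37.6% as deposited. Without the dimmer 50% of genes, fewer genes were tested, with 1187 lower and 1045 higher of all genes and 15 lower on the related lists. Signs turned among genes that were not called as deposited. Centring shifts the fold change of every gene by the same amount, so the signs it turned follow from that shift. After quantile normalization SUI3 was at -0.086 and GCD2 at 0.060. With arrays centred on the median deviation GCD11 was at 0.021, GCD7 at 0.031, GCD1 at 0.012, GCD2 at 0.095 and HCR1 at 0.12. Cyclic loess gave 0.016 for GCD7, 0.063 for GCD1, 0.14 for GCD2 and 0.014 for HCR1. Centring on array medians gave 0.0048 for GCD2 and 0.033 for HCR1. HCR1 was also at 0.083 with array weights, and ranged from -0.062 to 0.068 when single arrays were left out. Promoter motifs were not analysed here. The intensity trend, the robust prior, the plain test without a shared prior and the mean of all probe sets left the members' counts within 1 gene. Leaving out the 3 shared-signal probe sets removed TIF2, TEF2 and EFT2. Array weights gave 27 of the 37 genes called lower and 6 higher, with 2901 lower and 1752 higher of all genes. Without the dimmest 25% of genes, 25 of the 37 genes were called lower and 6 higher. Of the 4242 genes then tested, 1962 were called lower and 1354 higher. At an adjusted p under 0.01, or with control cultures 2 and 3 as 1 sample, 25 of the 37 were called lower and 5 higher. Of all genes, 2312 were lower and 1360 higher at that threshold. With these cultures as 1 sample, 2474 of all genes were lower and 1479 higher.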
